A study of Chlamydomonas reinhardtii with 5 samples.

Results

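Transcript levels of 9 cell-cycle genes were described in wild-type *Chlamydomonas reinhardtii* before and after ionizing radiation. The 9 genes were chosen by locus name as 3 cyclin-dependent kinases (CDKA1, CDKB1 and CDKG1), 3 cyclins (CYCA1, CYCB1 and CYCAB1), the kinase WEE1, and MAT3 and DP1 of the retinoblastoma pathway. All 9 were found among the 17742 genes of the count files. The symbols come from the working list of genes, because the RefSeq table used here (assembly v5.5) gave 0 symbols other than the locus name.

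The samples were 5 libraries from liquid cultures of strain CC-125 (genotype WT), 1 library per condition. The mock was not irradiated, XR6 and XR50 received X-rays of 6 and 50 Gy, and GR6 and GR50 received γ-rays of 6 and 50 Gy from a cobalt source. All cultures were mid-exponential cells kept under constant white light, so that the cell cycles were not set in phase by a light and dark rhythm. X-irradiated cells were concentrated into small tubes and exposed for 22.2 min at 6 Gy or 8.1 min at 50 Gy, whereas γ-irradiated cells stayed at culture density and both doses took 1 h. The X-ray tube current was 1 mA at 6 Gy and 10 mA at 50 Gy. Cells for X-rays came from cultures in conical tubes, and cells for γ-rays from larger cultures in flasks. Radiation type, culture vessel, handling and exposure time cannot be told apart in this design. How the mock was handled is not given in the sources used here. Differences of vessel and handling may therefore enter each change from the mock, which was not tested. Dose cannot be told apart from dose rate under either radiation type, nor from exposure time for X-rays. The time from irradiation to harvest for RNA-Seq is not given in the sources used here. Fewer dividing cells and less RNA per cell cannot be told apart in bulk RNA.

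*Chlamydomonas* grows for a long G1 phase and then divides by multiple fission, in which rounds of DNA replication and mitosis follow each other quickly. CDKA1 is the alga's counterpart of the main animal and yeast cell-cycle kinase, and CDKB1 is a kinase of the plant lineage needed for mitosis. Cyclins bind such kinases and activate them. CDKG1 is bound by D-type cyclins and phosphorylates MAT3, the retinoblastoma-related protein that links cell size to the number of divisions, and DP1 is the partner with which E2F factors bind DNA next to MAT3. WEE1 slows mitosis by inhibitory phosphorylation of cyclin-dependent kinases. Transcripts of many of these genes are known to peak during the division phase.

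Reads on genes numbered between 18364833 and 20330055 per library. The share of reads listed as not aligned was 32.2% in XR6 and between 37.7% and 41.8% in the other libraries, a difference whose part in the XR6 values was not tested. Counts were converted to CPM, the count divided by the scaled library size in units of 1e6 reads, with the TMM scaling of edgeR. A fold change is the ratio of 2 CPM values on the log2 scale, followed by the exact (Clopper-Pearson) 95% interval of the 2 counts, which covers counting error only. The methods of the study describe biological replicates, and whether a count file pools them or holds 1 of them is not given in the sources used here. With 1 library per condition there was no replicate check and no test against the mock, and all 4 comparisons with the mock share that library. No member was at or below the floor of 3 counts in any library. Their mean counts ran from 32.0 for WEE1 to 2153 for CDKG1, so that counting error was small for CDKG1, MAT3 and DP1 and wide for the others.

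**Figure D1:**
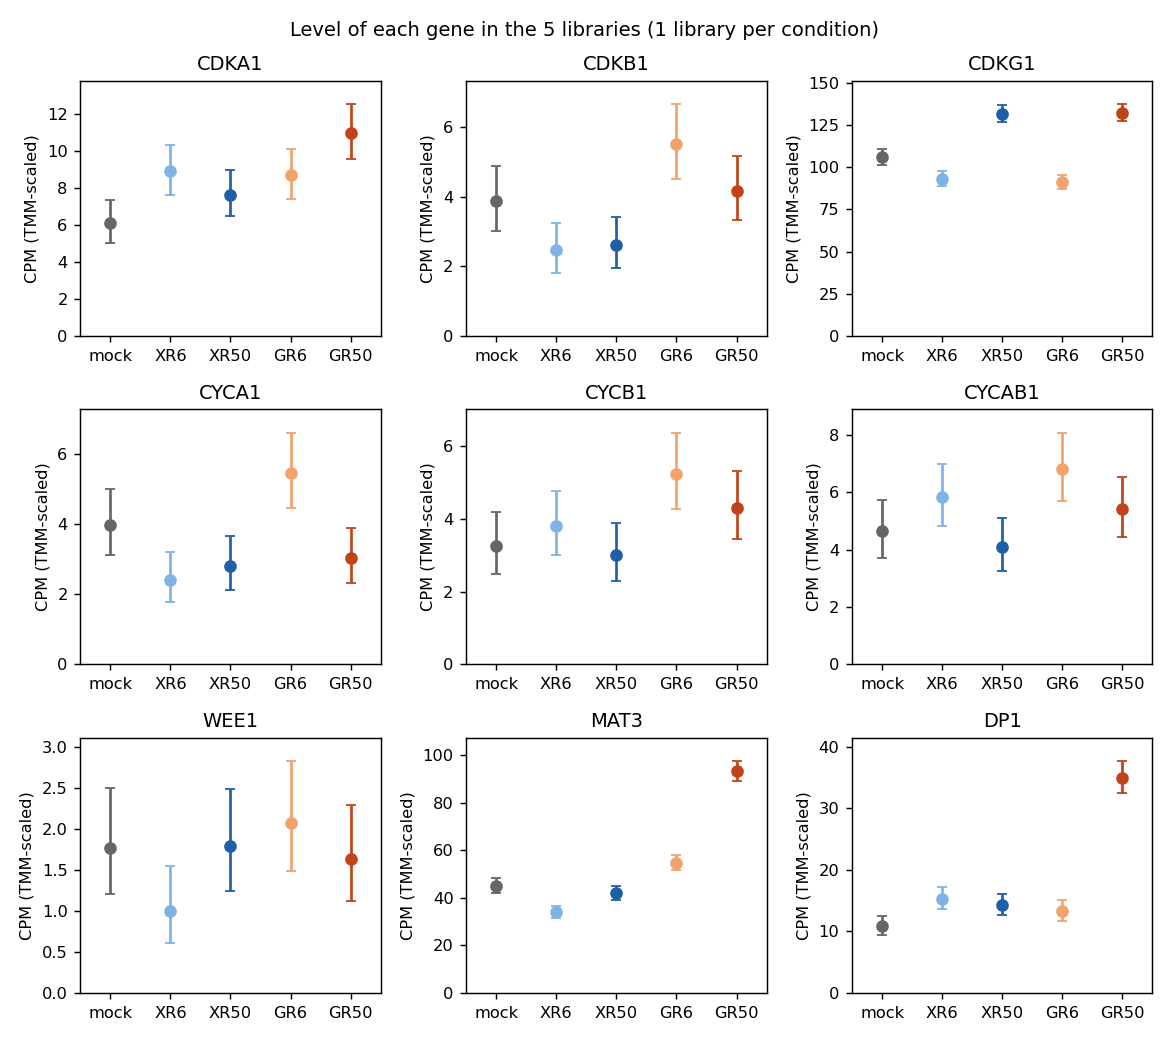
TMM-scaled CPM (vertical axis, from 0) of each gene in the mock, XR6, XR50, GR6 and GR50 (horizontal axis), 1 library per condition, with exact Poisson 95% intervals of the count as bars. DP1 and MAT3 stand highest in GR50, at 35.0 and 93.1 CPM, and CDKB1, CYCA1 and CYCB1 stand highest in GR6.

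In GR50, the retinoblastoma pathway gave the largest log2 fold changes against the mock of the 9 genes. The largest in size elsewhere were those of WEE1 in XR6 (-0.82, within counting error), CDKB1 in XR50 (-0.57) and CYCB1 in GR6 (0.69). DP1 (CHLRE_07g323000v5), the E2F partner, lies on chromosome 7 from 1426076 to 1430667. It had 198 counts in the mock, 305 and 280 in XR6 and XR50, and 256 and 705 in GR6 and GR50, or 10.9, 15.3, 14.3, 13.3 and 35.0 CPM. All 4 irradiated libraries were above the mock beyond counting error, and GR50 was far above the rest. The log2 fold change against the mock was 0.49 (0.22 to 0.75) and 0.39 (0.12 to 0.66) in XR6 and XR50, and 0.28 (0.01 to 0.56) and 1.68 (1.45 to 1.91) in GR6 and GR50, the last being 3.20-fold. In GR50, 6.4% of all genes with counts in both libraries were as high as DP1. XR6, XR50 and GR6 followed each other in level by steps within counting error.

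MAT3 (CHLRE_06g255450v5), the retinoblastoma-related protein, lies on chromosome 6 from 937146 to 943474. Its counts were 814 in the mock, 673 and 818 in XR6 and XR50, and 1053 and 1876 in GR6 and GR50, which correspond to 45.0, 33.8, 41.9, 54.7 and 93.1 CPM. Both X-ray libraries were below both γ-ray libraries, with the mock between them. Against the mock, the log2 fold change was -0.41 (-0.56 to -0.26) and -0.10 (-0.24 to 0.04) in XR6 and XR50, and 0.28 (0.15 to 0.42) and 1.05 (0.93 to 1.17) in GR6 and GR50. XR6 was thus lower, and GR6 and GR50 were higher, beyond counting error, whereas XR50 was within it. MAT3 lies 2 bp from CHLRE_06g255500v5 without overlap, and the log2 fold change of that neighbour was between -0.24 and 0.07 in the 4 irradiated libraries.

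CDKG1 (CHLRE_06g271100v5, chromosome 6, 2780728 to 2785308), the kinase that phosphorylates MAT3, was the most deeply counted gene. It had 1918 counts in the mock, 1854 and 2574 in XR6 and XR50, and 1756 and 2665 in GR6 and GR50. In CPM the values were 106.0, 93.2, 131.8, 91.3 and 132.3, so that both 50 Gy libraries were above the mock and both 6 Gy libraries below it. The log2 fold change was -0.19 (-0.28 to -0.09) and 0.31 (0.23 to 0.40) in XR6 and XR50, and -0.22 (-0.31 to -0.12) and 0.32 (0.23 to 0.40) in GR6 and GR50. Each exceeded counting error but was small. With library totals in place of TMM, the XR6 value changed its sign to 0.02 and that of GR6 was -0.11, so that XR6 has no firm direction from the mock.

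CDKB1 (CHLRE_08g372550v5, chromosome 8, 2573155 to 2575841), the mitotic kinase, was low after X-rays. It had 70 counts in the mock, 49 and 51 in XR6 and XR50, and 106 and 84 in GR6 and GR50, or 3.87, 2.46, 2.61, 5.51 and 4.17 CPM. The X-ray libraries lay below the mock and the γ-ray libraries above it. Its log2 fold change was -0.65 (-1.21 to -0.10) and -0.57 (-1.12 to -0.03) after X-rays of 6 and 50 Gy, and 0.51 (0.06 to 0.97) and 0.11 (-0.37 to 0.59) after γ-rays of these doses. Only the GR50 value was within counting error. Scaled by library totals, XR6 was at -0.45 (-1.003 to 0.10) and XR50 at -0.50 (-1.05 to 0.04), so that both X-ray values then lay within it.

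CDKA1 (CHLRE_10g465900v5, chromosome 10, 6429668 to 6432962) was lowest in the mock. Its counts were 110 in the mock, 177 and 149 in XR6 and XR50, and 167 and 221 in GR6 and GR50, or 6.08, 8.90, 7.63, 8.68 and 10.97 CPM. The log2 fold change was 0.55 (0.20 to 0.91) and 0.33 (-0.04 to 0.70) in XR6 and XR50, and 0.51 (0.16 to 0.87) and 0.85 (0.51 to 1.20) in GR6 and GR50, beyond counting error in all but XR50, which passed it with library totals, at 0.39 (0.03 to 0.76). From XR50 through GR6 to XR6, neighbouring levels did not differ beyond counting error.

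Of the cyclins, CYCA1 (CHLRE_03g207900v5, chromosome 3, 7201856 to 7204403), an A-type cyclin, went with CDKB1. It had 72 counts in the mock, 48 and 55 in XR6 and XR50, and 105 and 61 in GR6 and GR50, or 3.98, 2.41, 2.82, 5.46 and 3.03 CPM. Against the mock, its log2 fold change was -0.72 (-1.28 to -0.18) and -0.50 (-1.03 to 0.03) in XR6 and XR50, and 0.46 (0.01 to 0.91) and -0.39 (-0.91 to 0.12) in GR6 and GR50. The level in XR6 was below the mock and that in GR6 above it, and both 50 Gy libraries were within counting error of the mock. With library totals the XR6 value was -0.52 (-1.07 to 0.03), within counting error.

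CYCB1 (CHLRE_08g370401v5, chromosome 8, 2308627 to 2310188), the B-type cyclin of mitosis, had 59 counts in the mock, 76 and 59 in XR6 and XR50, and 101 and 87 in GR6 and GR50. These are 3.26, 3.82, 3.02, 5.25 and 4.32 CPM, and every step between neighbouring levels was within counting error. Only GR6 differed from the mock beyond it, with a log2 fold change of 0.69 (0.21 to 1.18). CYCB1 lies 2 bp from CHLRE_08g370450v5 without overlap. That neighbour had 716 counts in the mock and log2 fold changes from -0.79 in XR6 to 0.31 in GR50. Whether its reads entered the counts of CYCB1 was not tested. CYCAB1 (CHLRE_10g466200v5, chromosome 10, 6455473 to 6459944), a cyclin with features of A and B types, had 84, 116, 80, 131 and 109 counts in the mock, XR6, XR50, GR6 and GR50. Its level was 4.64, 5.83, 4.10, 6.81 and 5.41 CPM in the same order, and again only GR6 passed counting error, with 0.55 (0.15 to 0.97). With library totals XR6 passed it as well, at 0.53 (0.12 to 0.96). CYCAB1 lies 22510 bp from CDKA1 on chromosome 10, with 6 genes between them. Summed over the 3 cyclins, counts were 215 in the mock, 240 and 194 in XR6 and XR50, and 337 and 257 in GR6 and GR50, and the summed log2 fold change in GR6 was 0.56 (0.31 to 0.81).

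WEE1 (CHLRE_07g355250v5, chromosome 7, 6063030 to 6066795) was the least counted gene, with 32 counts in the mock, 20 and 35 in XR6 and XR50, and 40 and 33 in GR6 and GR50. Its level was 1.77, 1.00, 1.79, 2.08 and 1.64 CPM. The lowest value was that of XR6, with a log2 fold change of -0.82 (-1.70 to 0.04), and no library differed from the mock beyond counting error. At this depth, differences of WEE1 that lie within these intervals were not detectable. WEE1 also lies 2 bp from a neighbour, CHLRE_07g355200v5, which had 14 counts in the mock and log2 fold changes from -0.22 in XR50 to 0.96 in GR6.

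**Figure D2:**
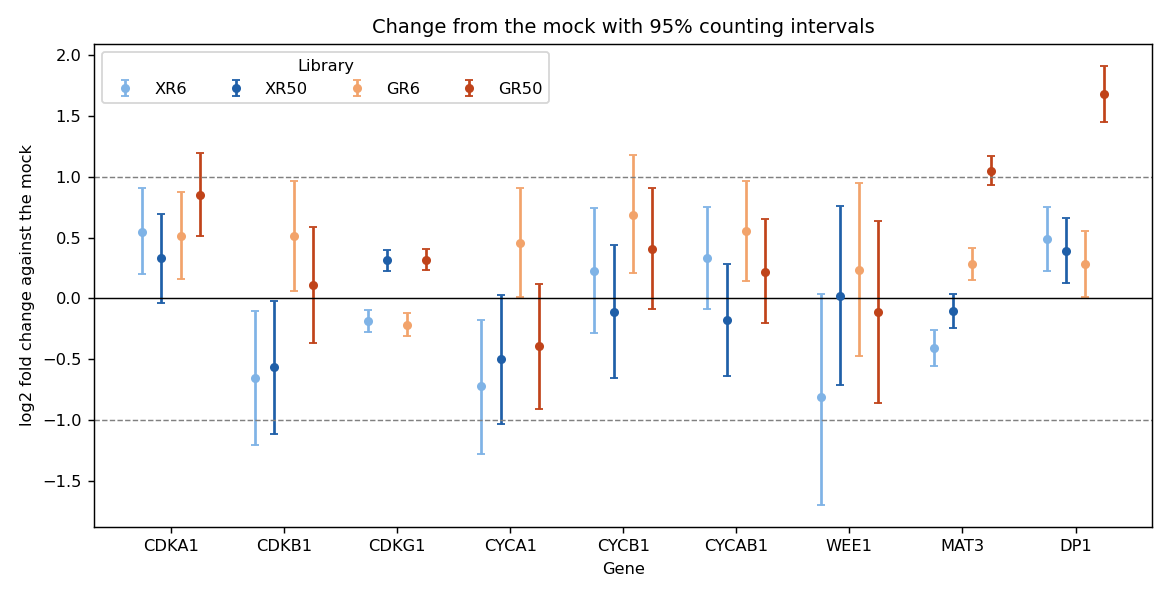
Log2 fold change against the mock (vertical axis) of each gene (horizontal axis) in XR6, XR50, GR6 and GR50, with exact 95% counting intervals as bars and dashed lines at 2-fold. DP1 at 1.68 and MAT3 at 1.05 in GR50 are the 2 values beyond the dashed lines.

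Few of the 9 genes passed 2-fold. More than 2-fold above the mock were 0 of 9 members in XR6, XR50 and GR6, where 8.61%, 6.67% and 8.05% of all genes with counts in both libraries were, and 2 of 9 (MAT3 and DP1) in GR50, where 14.1% were. More than 2-fold below the mock were 0 of 9 in each library, where the shares of all genes were 5.13% and 5.0% for XR6 and XR50, and 5.81% and 9.34% for GR6 and GR50. At a threshold of 1.5-fold, 3 of 9 members were below the mock in XR6 (15.2% of all genes), 1 of 9 was above it in GR6 (18.2%) and 3 of 9 were above it in GR50 (24.3%). The counting interval excluded 0 for 6 of 9 members in XR6 (50.9% of all genes), 3 of 9 in XR50 (39.8%), 8 of 9 in GR6 (46.6%) and 4 of 9 in GR50 (56.9%). In GR6, 7 genes were higher and CDKG1 was lower. With library totals the count in XR6 was 4 of 9 in place of 6. The median log2 fold change of the members was -0.19 and -0.10 in XR6 and XR50, and 0.46 and 0.32 in GR6 and GR50, beside medians of all genes of 0.00, -0.03, -0.01 and -0.01.

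**Figure D3:**
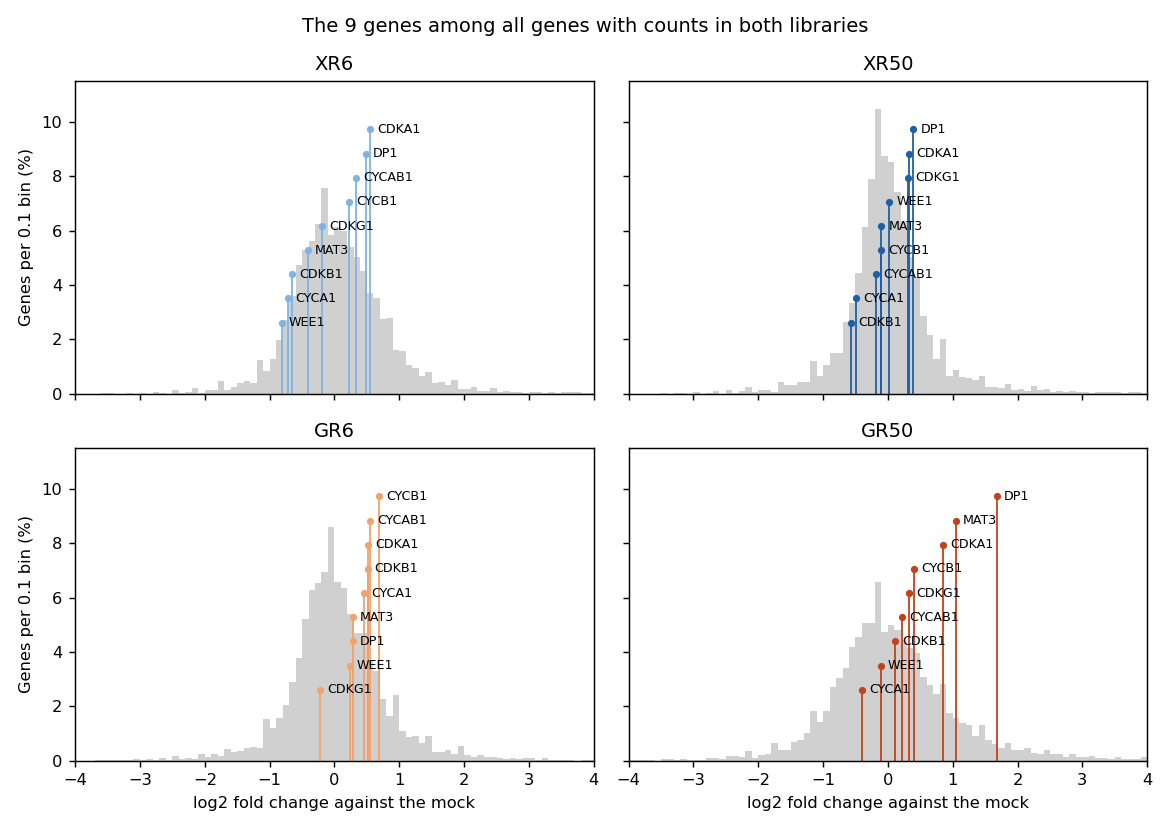
Distribution of the log2 fold change against the mock (horizontal axis) over all genes with counts in both libraries (grey bars, percent of genes per bin of 0.1, vertical axis; values beyond 4 in size are not drawn), one panel per irradiated library. Coloured lines mark the 9 genes, and their heights only keep the labels apart. In GR6, 8 of the 9 genes stand to the right of 0, beside 49.1% of all genes.

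Scaling by library totals instead of TMM adds 0.21 and 0.06 to each log2 fold change in XR6 and XR50, and 0.11 and 0.08 in GR6 and GR50, and the members' order in a library does not depend on it.

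The question of dose, which went with dose rate, was addressed by direct comparison of 50 with 6 Gy within a radiation type. With X-rays, the counting interval of the step excluded 0 for 4 of 9 members (42.6% of all genes). CDKG1 was higher in XR50 than in XR6 by 0.50 (0.41 to 0.59), MAT3 by 0.31 (0.16 to 0.46) and WEE1 by 0.83 (0.0018 to 1.70), whereas CYCAB1 was lower, at -0.51 (-0.94 to -0.09). With γ-rays, this was the case for 5 of 9 members (47.8% of all genes). DP1 was higher in GR50 than in GR6 by 1.40 (1.19 to 1.61), MAT3 by 0.77 (0.66 to 0.88), CDKG1 by 0.54 (0.45 to 0.62) and CDKA1 by 0.34 (0.04 to 0.64), whereas CYCA1 was lower, at -0.85 (-1.33 to -0.38). CDKG1 and MAT3 were therefore higher at 50 Gy under both radiation types. With library totals, the X-ray step of WEE1 was within counting error, at 0.69 (-0.14 to 1.56), whereas the X-ray step of CDKA1, at -0.36 (-0.69 to -0.04), and the γ-ray step of CDKB1, at -0.43 (-0.86 to -0.0037), passed it.

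The size of the step differed between the types beyond counting error for 5 of 9 genes, beside 50.0% of all genes with counts in the 4 irradiated libraries. For DP1, the γ-ray step exceeded the X-ray step by 1.49 (1.18 to 1.80), for CDKA1 by 0.56 (0.13 to 0.99) and for MAT3 by 0.46 (0.28 to 0.64). For CYCA1 the difference was -1.07 (-1.79 to -0.35) and for WEE1 -1.18 (-2.21 to -0.14). For CDKG1 it was 0.04 (-0.09 to 0.16), and with library totals it was 0.15 (0.03 to 0.27), beyond counting error. These intervals hold no variation between cultures.

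**Figure D4:**
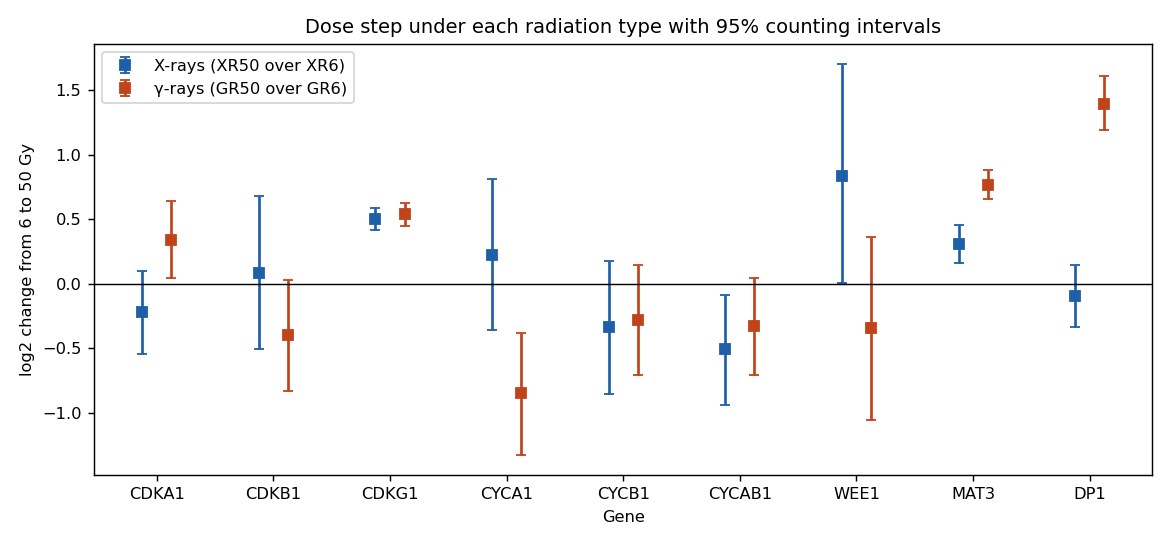
Log2 change from 6 to 50 Gy (vertical axis) of each gene (horizontal axis) after X-rays (XR50 over XR6) and γ-rays (GR50 over GR6), with exact 95% counting intervals as bars. DP1 is at -0.10 after X-rays and 1.40 after γ-rays, whereas CDKG1 is at 0.50 and 0.54.

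Among the 4 irradiated libraries, dose was tested with radiation type as a second factor. With 14112 genes fitted and 1 residual degree of freedom, the error came from the departure of the 4 libraries from additivity, and the gene-wise variance followed the common trend. Of the members, 0 of 9 passed an adjusted p of 0.05 for dose, against 1.88% of all genes tested (quasi-likelihood test of edgeR, Benjamini-Hochberg adjustment). Without adjustment the number was 0 as well, beside 919 of the 14112 genes. The adjusted Wald test of DESeq2 also gave 0 of the members (it gave no adjusted p for WEE1). The 3 highest dose effects were those of DP1 with 0.65 (SE 0.353), MAT3 with 0.54 (SE 0.319) and CDKG1 with 0.52 (SE 0.303). The lowest adjusted p was 0.882, for DP1 (edgeR's quasi-likelihood test). For CDKA1, the effect of 0.06 had a 95% interval of -0.62 to 0.74, which holds changes of more than 1.5-fold. Without a test, both 50 Gy libraries were above both 6 Gy libraries only for CDKG1 among the 9 genes (11.1% of the genes whose mean count reached 10), and below them only for CYCAB1 (10.5%).

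For comparison, 4 genes with a role in DNA replication were picked from the study's longer table of responsive genes. That table was drawn up from these libraries and is no independent evidence. The paper treats CrRPA70A, CrRPA30 and CrFEN1 as genes of the DNA damage response, and reports that they rose with dose in RT-qPCR as well. Whether the 4 genes reflect replication or damage was not tested here. All 4 were well above the mock at every dose. CrRPA70A and CrRPA30, subunits of the protein that coats single-stranded DNA, were at log2 fold changes of 5.85 and 4.32 in GR50, CrFEN1, a nuclease, at 3.25 and CrRIR2B, a subunit of ribonucleotide reductase, at 2.67. The highest value of a kinase or cyclin in GR50 was 0.85, for CDKA1. Other genes of the cell cycle were not analysed here, since the reference table used gave no descriptions by which to list them.

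The question of radiation type was addressed at each dose. At 6 Gy, the counting interval excluded 0 for 5 of 9 members (53.2% of all genes), which were all higher in GR6 than in XR6. CYCA1 was higher by 1.18 (0.67 to 1.70), CDKB1 by 1.16 (0.66 to 1.68), WEE1 by 1.05 (0.24 to 1.90), MAT3 by 0.69 (0.55 to 0.84) and CYCB1 by 0.46 (0.01 to 0.91). At 50 Gy, 5 of 9 members also passed (55.1% of all genes), again all higher after γ-rays. DP1 was higher in GR50 than in XR50 by 1.29 (1.09 to 1.49), MAT3 by 1.15 (1.03 to 1.27), CDKB1 by 0.67 (0.16 to 1.21), CDKA1 by 0.52 (0.22 to 0.83) and CYCB1 by 0.52 (0.02 to 1.02). CDKB1, CYCB1 and MAT3 were thus higher after γ-rays at both doses. With library totals, CYCB1 at 6 Gy was within counting error, at 0.36 (-0.09 to 0.81), and CDKG1 and DP1 were lower in GR6 than in XR6, at -0.13 (-0.23 to -0.04) and -0.30 (-0.55 to -0.06).

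XR6 and GR6 lay on opposite sides of the mock, both beyond counting error, for 3 of 9 members (CDKB1, CYCA1 and MAT3), against 10.0% of all genes. Of 27 contrasts of the members (the dose step and the change from the mock at each dose), 14 had opposite signs under the 2 radiation types, beside 43.0% of such contrasts over all genes. With library totals, CDKB1 and CYCA1 did not pass counting error in XR6. For 4 of the 9 members, CDKB1, CYCA1, CYCB1 and MAT3, both γ-ray libraries were above both X-ray libraries, against 25.6% of the genes whose mean count reached 10. In 0 of 9 were they below them, against 25.9% of the same genes. In the fit, MAT3 was the only member with a radiation type effect, 0.92 on the log2 scale (SE 0.320, adjusted p = 0.0419, quasi-likelihood test of edgeR, Benjamini-Hochberg adjustment). This 1 of 9 compares with 10.0% of all genes tested. Without adjustment 2 of 9 passed 0.05, MAT3 and CDKB1, beside 2870 of the 14112 genes tested. The effect of CDKB1 was as large, 0.92, but with an SE of 0.404 and an adjusted p of 0.147 (edgeR's quasi-likelihood test). That of CDKG1 was -0.01, with a 95% interval of -0.61 to 0.58. The adjusted p of MAT3 was 0.0950 with library totals in place of TMM and 0.0798 with the Wald test of DESeq2, within a range of 0.0331 to 0.122 over the 6 alternatives run, so that its call depends on the setting. The effect itself was between 0.88 and 0.97 under them.

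Ratios of 2 genes within a library do not depend on the scaling. The counts of MAT3 relative to those of CDKG1 were 0.424 (0.391 to 0.461) in the mock, 0.363 (0.332 to 0.397) and 0.318 (0.293 to 0.344) in XR6 and XR50, and 0.600 (0.555 to 0.648) and 0.704 (0.663 to 0.747) in GR6 and GR50. This ratio was thus below the mock after X-rays and above it after γ-rays, and the intervals of XR50, GR6 and GR50 did not meet that of the mock. DP1 relative to MAT3 was 0.243 in the mock and in GR6, 0.342 in XR50, 0.376 in GR50 and 0.453 in XR6, and only GR6 was at the ratio of the mock. CDKB1 relative to CDKA1 was 0.636 (0.465 to 0.867) in the mock and 0.635 (0.493 to 0.814) in GR6, but 0.277 (0.197 to 0.382) in XR6, 0.342 (0.244 to 0.473) in XR50 and 0.380 (0.292 to 0.491) in GR50. The mitotic kinase was therefore low relative to CDKA1 in XR6 beyond both intervals, and in XR50 and GR50 with intervals that overlap that of the mock. CDKA1 itself stood above the mock in XR6, XR50 and GR50, by 0.55, 0.33 (within counting error) and 0.85 on the log2 scale. In GR50, CDKB1 was at 0.11 (-0.37 to 0.59) against the mock, so that there the ratio does not show a lower CDKB1. CYCA1 relative to CDKB1 lay between 0.726 and 1.08 in the 5 libraries, with intervals that all overlapped. Intervals that overlap do not show that ratios are equal, and differences of these ratios between libraries were not tested.

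**Figure D5:**
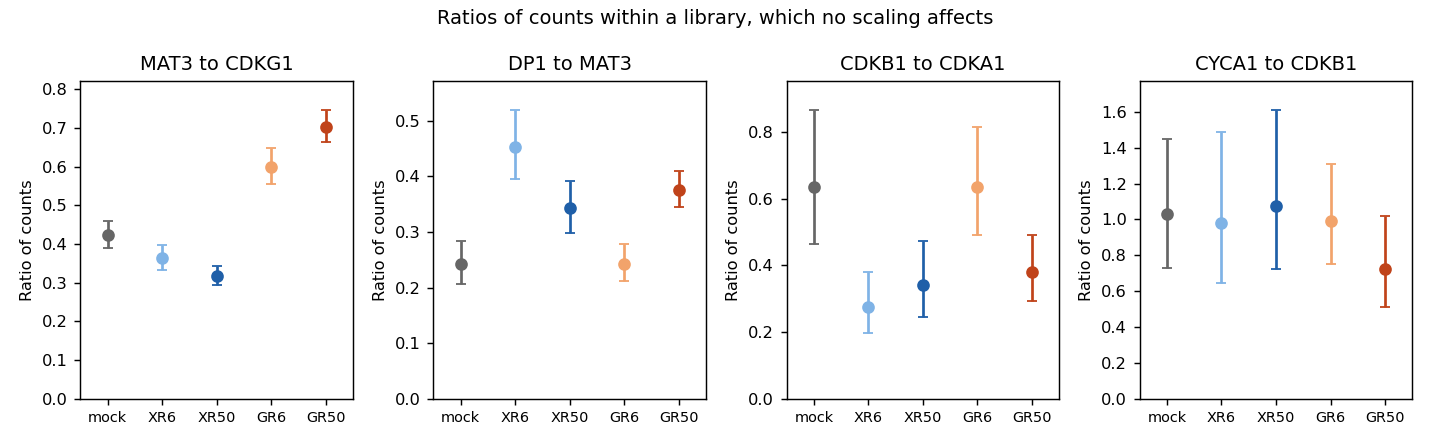
Ratio of the counts of 2 genes within a library (vertical axis, from 0) in the mock, XR6, XR50, GR6 and GR50 (horizontal axis), with exact 95% counting intervals as bars. MAT3 to CDKG1 is at 0.318 to 0.363 after X-rays and 0.600 to 0.704 after γ-rays, on either side of 0.424 in the mock.

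The likeness of each profile to that of CDKB1 was measured as the root mean square distance of log2(CPM + 1), centred over the 5 libraries, among genes whose mean count reached 50. CYCA1 was at a distance of 0.16, and 2.64% of 10765 genes were as near. CYCB1 was at 0.23 (9.11% of genes) and CYCAB1 at 0.28 (17.4%), shares that were 13.7% and 31.9% by rank correlation, followed by MAT3 at 0.38, CDKA1 at 0.39, CDKG1 at 0.45 and DP1 at 0.62, which was farther than most genes (82.3%). WEE1 has too few counts for this list. The 2 nearest genes were CHLRE_06g279900v5, at 0.04 with 9.29, 6.18, 6.86, 12.1 and 9.63 CPM in the mock, XR6, XR50, GR6 and GR50, and CHLRE_09g416450v5, also at 0.04 with 80.3, 59.1, 62.9, 116.8 and 90.2 CPM. The 5 points share their libraries, and likeness of this kind is a description only.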

How the data were processed

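RNA-Seq of total RNA was available for 5 libraries. According to the labels and the Materials and Methods, stranded paired-end reads were trimmed with Trimmomatic 0.36, mapped with HISAT2 2.2.1 to the v5.5 genome and counted with HTSeq 0.11.3. Whether HTSeq used strand is not given in the sources used here. The deposited values are raw counts per gene, made by the authors without normalization. The 5 counters of unassigned reads (44.1% to 50.7% of the reads listed) were left out of totals and tests. Replicates from different batches are described in the methods, and 1 library per condition was analysed here. It is not known whether each count file pools them.

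TMM scaling, filterByExpr and the additive quasi-likelihood fit (glmQLFit and glmQLFTest, default mode) were run over all genes with edgeR 4.0.16 under R 4.3.3, and the alternative Wald test with DESeq2 1.42.0. Standard errors of the fit are the effect divided by the square root of its F value. Exact intervals came from scipy 1.17.1. The fit was tested on simulated dose changes larger than any dose effect of the members, so that its power at their size was not tested. The intervals were tested on simulated Poisson counts, which hold counting error only. Since reads amplified by PCR carry no molecular identifiers, they may not be independent, and intervals cover counting error only. The genes named were all 9 members, the 2 genes nearest to CDKB1 and the 4 replication genes. A planned list of other cell-cycle genes could not be formed from the reference table. The members, lists and tests were chosen with earlier results of these data known, and the ratios and the sum of cyclins after the counts had been seen.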

Additional observations from a re-analysis of the deposited data

Results flagged for a closer look

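For 3 genes, the change from the mock at 6 Gy had opposite directions under the 2 radiation types, each beyond counting error, which was also the case for 10.0% of all genes with counts in the 3 libraries. CYCA1 was at -0.72 in XR6 and 0.46 in GR6, a difference of 1.18. CDKB1 was at -0.65 and 0.51, a difference of 1.16, and MAT3 at -0.41 and 0.28, a difference of 0.69. With library totals, CYCA1 and CDKB1 were within counting error of the mock in XR6, at -0.52 (-1.07 to 0.03) and -0.45 (-1.003 to 0.10). Both arms rest on 1 library, and the difference was not tested at 6 Gy alone. Of 27 such contrasts of X- and γ-rays (the dose step and the change from the mock at each dose, for 9 genes), 14 had opposite signs when counting error is ignored, beside 43.0% of the same contrasts over all genes with counts in every library.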

How the results depend on the processing

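Of 500 recomputed values, 481 kept their direction and their side of the threshold or stayed within counting error. Size factors of DESeq2, a prior count of 1 and thinning to the smallest library kept the members' fold changes in all 8 comparisons within their intervals, as did TMM without GR50 (chosen after seeing the data) in the 3 comparisons with the mock that it could give. With library totals, CDKG1 was at 0.0202 in XR6 against the mock, a reversal, and the dose effect of CDKA1 was -0.0249, also reversed. By construction, totals shift all genes of a library alike. Of 72 intervals recomputed with totals (chosen after seeing the data), 6 no longer excluded 0 and 6 newly did. The number of members with a radiation type effect was 0 with library totals, with the Wald test of DESeq2, with type fitted alone and with all genes of at least 1 count, against 1, and the adjusted p of MAT3 there was between 0.0560 and 0.122. It stayed at 1 with a mean of at least 50 counts and in the other quasi-likelihood mode (chosen after seeing the data). With a 1.5-fold threshold, 3 members were below the mock in XR6 (15.2% of all genes) and 1 was above it in GR6 (18.2%), against 0 each, and 3 were above it in GR50 (24.3%), against 2. By rank correlation, MAT3 was as near to CDKB1 as CYCA1 (2.31% of genes), whereas the shares of CYCB1 and CYCAB1 were 13.7% and 31.9%. WEE1 and CYCA1, with the lowest mean counts, were limited most by depth, and WEE1 has no value in the fit with a mean of at least 50 counts. No paired analysis was possible because each condition has 1 library.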

Other observations

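The gene nearest to CYCA1, CHLRE_03g207901v5, which lies 725 bp from it and was singled out after its values had been seen, had 2 counts in the mock, 45 and 154 in XR6 and XR50, and 30 and 122 in GR6 and GR50. With the mock set to the floor of 3 counts, its ratio to the mock was 13.6-fold in XR6, 47.6-fold in XR50, 9.40-fold in GR6 and 36.5-fold in GR50. These ratios carry no interval, and the mock count is too low to fix their size. Neither annotated gene overlaps the other, and CYCA1 itself was at 48 to 105 counts in the irradiated libraries.

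Across the 9 genes, the highest level was in GR6 for 5 and in GR50 for 4, and in 0 genes was it in the mock or after X-rays. Among the 13986 genes whose mean count reached 10, 17.5% were highest in GR6 and 25.9% in GR50, and 21.1%, 22.3% and 13.2% in the mock, XR6 and XR50. For CDKB1, CDKG1, CYCB1, CYCAB1 and WEE1, the highest level exceeded the next by a step within counting error. With size factors of DESeq2, CDKG1 was slightly lower in GR50 than in XR50, at -0.0048. The lowest level was in XR6 for 4 genes, beside 20.9% of all genes.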
